A study of Mus musculus with 8 samples.

Results

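The genes described here are 9 mouse genes, neuronal targets of the transcription factor KLF7 and regulators of microtubules. L1cam, Gap43, Ntrk2 and Omp have been reported as targets of KLF7 in the nervous system. Dpysl2, Map4, Mapt, Stmn1 and Stmn2 encode proteins that act on tubulin or microtubules. All 9 were taken by name from the array's annotation, with 1 probe set per gene, and make up 9 of the 19938 genes measured. They were chosen by name with 2 measured values already known, the difference in log2 intensity between the 4 KLF7 and the 4 control arrays and the level against the array median, so these values are given as a description with no test. The question of the study was which genes differ between blood stem and progenitor cells that overexpress KLF7 and control cells. Cells with the receptor c-Kit from the bone marrow of C57Bl/6 mice received a lentivirus, and cells that were Lin- c-Kit+ Sca-1+, a fraction rich in stem cells and early progenitors, were sorted 72 hours later. There were 4 arrays labelled KLF7, whose virus expressed KLF7, and 4 labelled control, whose virus is named only as a control, with 1 amplified RNA preparation per array. The labels say neither if each array stands for a culture or animal of its own nor how old the mice were, so every SD and p-value reflects the spread between these 8 preparations alone, and that spread may be technical.

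KLF7 is a Krüppel-like zinc finger protein, and proteins of this family bind GC boxes and CACCC boxes in DNA. In neurons it is known for its part in the outgrowth of axons, in the olfactory system and in sensory ganglia among other places. An axon grows by extending a bundle of microtubules behind a motile growth cone, so adhesion molecules at the surface, receptors for growth factors and proteins that stabilise or take apart microtubules work side by side. Most of these proteins are not restricted to neurons, and Map4, Stmn1 and Dpysl2 are also known from dividing and migrating cells.

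RefSeq promoter windows were given for 3 of the 9 genes, L1cam, Map4 and Ntrk2, in the build GRCm38.p6. These 3 are shown because no window was given for the other genes, and whether motifs bear on the differences was not tested. Each run reads 5′ to 3′ on the strand of the gene, and capitals mark every match on either strand to the CACCC box (CACCC, or GGGTG on the other strand) and to the GC box (GGGCGG, or CCGCCC).
L1cam: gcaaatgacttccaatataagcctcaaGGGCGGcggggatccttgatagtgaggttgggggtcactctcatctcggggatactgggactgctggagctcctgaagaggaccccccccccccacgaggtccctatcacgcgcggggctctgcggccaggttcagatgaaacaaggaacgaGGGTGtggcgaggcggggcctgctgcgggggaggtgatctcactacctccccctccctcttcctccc
Map4: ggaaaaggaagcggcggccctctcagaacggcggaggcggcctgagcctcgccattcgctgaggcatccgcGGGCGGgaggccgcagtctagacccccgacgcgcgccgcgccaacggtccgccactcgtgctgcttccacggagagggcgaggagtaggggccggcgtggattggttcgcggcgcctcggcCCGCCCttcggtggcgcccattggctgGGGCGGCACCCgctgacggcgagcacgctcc
Ntrk2: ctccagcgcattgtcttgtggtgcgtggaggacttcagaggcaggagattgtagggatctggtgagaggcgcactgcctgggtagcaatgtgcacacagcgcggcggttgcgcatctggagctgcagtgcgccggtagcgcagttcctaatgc
The L1cam run is chrX:73880839-73881084 on the minus strand, the Map4 run chr9:109931524-109931773 on the plus strand and the Ntrk2 run chr13:58806319-58806471 on the plus strand. The runs of L1cam and Ntrk2 stop where the RefSeq gene span begins, and the Map4 run lies within that span, in front of the start of an inner transcript. Motifs were counted over the 250 bases before each start. The L1cam window held 1 CACCC box, 71 bases before the start, and 1 GC box, 223 bases before it. The Map4 window held 3 GC boxes, 179, 58 and 31 bases before the start, and 1 CACCC box, 25 bases before it, which follows the last GC box without a gap. The Ntrk2 window held neither motif. Of the 32851 windows of the same length in the table, 52.0% held a CACCC box and 32.7% a GC box, so either match is common. At least 3 GC boxes, as in the Map4 window, were held by 8.47%. The windows of L1cam, Map4 and Ntrk2 were 63.2%, 74.0% and 62.8% G and C, against a median of 52.4% over all windows. Another L1cam start, whose window overlaps the first, also had 1 match of each kind, and a further Map4 start had 1 CACCC box and no GC box.

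The transduced gene checked the labels first. Klf7 lay at log2 intensities of 11.43, 10.19, 11.05 and 10.52 on the arrays KLF7 1 to 4 and at 8.53, 10.28, 9.35 and 7.98 on the arrays control 1 to 4. The array labelled control 2 therefore lay above the array labelled KLF7 2, and groups are named by their labels throughout. Kit, which encodes c-Kit, lay between 7.85 and 10.52, with the arrays numbered 4 the lowest of both groups, and 8 of the 10 measured stem and progenitor markers had a mean above the array median. So did 9 of 11 granulocyte and mast cell markers and 5 of 6 erythroid and megakaryocyte markers. It also held for 14 of 15 monocyte, macrophage and dendritic cell markers, but for only 1 of 8 lymphoid markers. These counts thus do not set stem cells apart from other blood cells. Over all genes, the deviations of KLF7 4 and control 4 from their group means correlated at 0.70, the highest of any KLF7 and control array. The mean log2 intensity of the granulocyte and mast cell markers was 7.51 on KLF7 4 and 7.38 on control 4. On the other 6 arrays it lay between 9.10 and 10.78. Values without KLF7 4 and control 4 are given below where they bear on a gene. Of 12 neuron markers 1 (Nefh, a neurofilament gene, named after its values were seen) lay above the array median, and of 7 glia and Schwann cell markers 2 did. The neuron markers' summed intensity ran from 322.4 to 387.3 on the KLF7 arrays and from 359.0 to 392.8 on the control arrays. No marker of neurons or glia had an unadjusted p under 0.05 in limma (smallest adjusted p 0.785 and 0.945). The smallest p of each list belonged to Nefm, a neurofilament gene, at 0.17 (SE 0.11), followed by Slc17a7, a glutamate transporter gene, at 0.15 (SE 0.12), and to S100b, a gene of a calcium-binding protein, at 0.13 (SE 0.21), followed by Gfap, a glial filament gene, at 0.09 (SE 0.15). Most of the listed markers of neurons and glia, the cells in which most of the 9 genes are best known, thus lay below the array median in these sorts.

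In limma with Benjamini-Hochberg adjustment, 0 of the 19938 genes (0%) had an adjusted p under 0.05 between the groups, and 1637 (8.21%) had an unadjusted p under 0.05. The count depends on the model. With a batch term for the arrays numbered 4, 26 genes passed, and with the replicate number as a block 90 did. L1cam, Dpysl2 and Map4, which were chosen on this difference, were among them in both fits. Among the 9, the mean was higher with KLF7 for 7 and lower for 2, where 50.4% of all genes had a higher mean. The median difference of the 9 was 0.19 log2, against 0.0019 for all genes tested. It was 0.10 without KLF7 1, 0.07 without control 2 and 0.0067 without KLF7 2 and control 2, so it rests on single arrays. The 9 genes fell into separate sets. L1cam, Dpysl2 and Map4 had means more than 2-fold higher on the KLF7 arrays, with no overlap between the groups. The groups overlapped for the other 6, whose differences lay between -0.11 and 0.27. Groups that do not overlap, with KLF7 higher, were found for 2.83% of all genes, and with KLF7 lower for 2.38%. Since the choice of the 9 genes used these differences, nothing is read from the count.

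**Figure D1:**
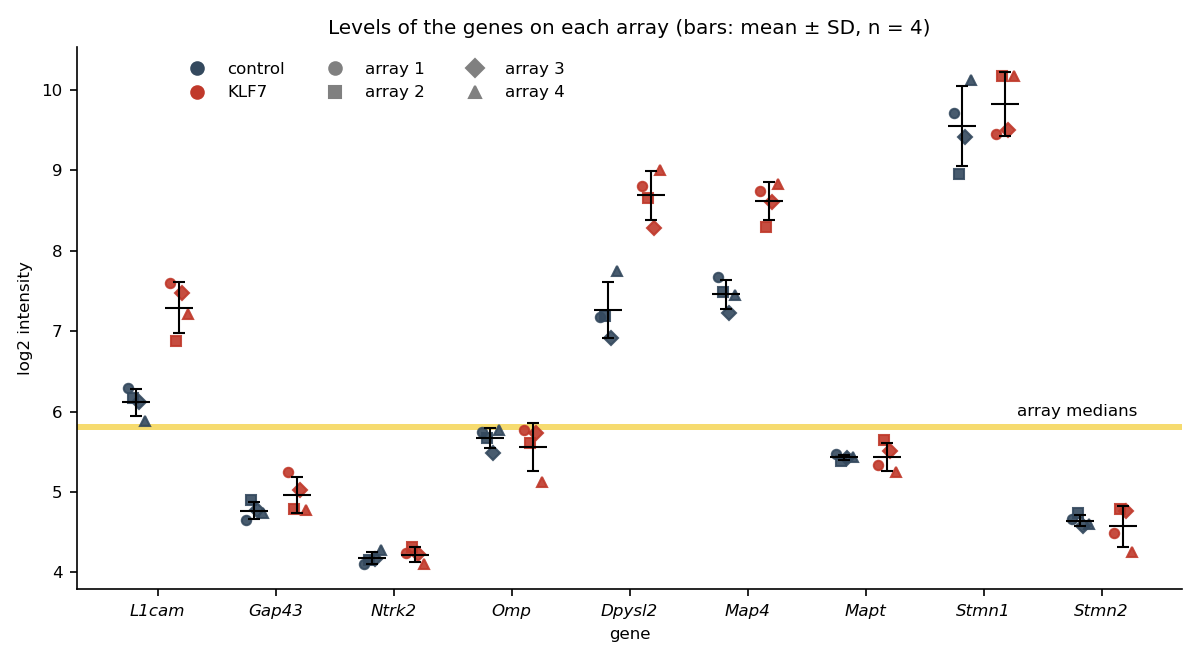
Log2 intensity (vertical axis) of each of the 9 genes (horizontal axis) on the 4 control arrays and the 4 KLF7 arrays, with the marker shape giving the array number, black bars the mean ± SD of each group, and the yellow band the range of the array medians. The KLF7 points of L1cam, Dpysl2 and Map4 lie above all control points of the same gene, and 5 genes lie below the band on average. Levels of different genes are not comparable with each other.

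The array median over genes lay between 5.77 and 5.85 log2. The levels of L1cam, Dpysl2, Map4 and Stmn1 lay above the median of the same array on all 8 arrays, and those of Gap43, Ntrk2, Mapt, Stmn2 and Omp lay below it on all 8. Nearest to the line were L1cam, 0.88 above it on average, and Omp, 0.21 below it. For all 4 genes above the median the KLF7 mean was the higher one, with differences of 0.27 to 1.43. Of the 5 below it, 3 had a higher and 2 a lower mean, with differences of -0.11 to 0.19. Probe sets this dim can hold mostly background, and a difference of their genes may then be understated.

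L1cam encodes L1, an adhesion molecule of the immunoglobulin superfamily that binds itself and integrins on neighbouring cells and guides growing axons. Its probe set, 10605113, lay at 7.60, 6.88, 7.48 and 7.21 on the arrays KLF7 1 to 4 and at 6.29, 6.17, 6.12 and 5.89 on control 1 to 4. The lowest KLF7 array, KLF7 2, was 0.60 log2 above the highest control array, control 1. The means were 7.29 ± 0.32 and 6.12 ± 0.17 (SD, n = 4 each), a difference of 1.18 log2 (SE 0.19) or 2.26-fold. It was 1.13 without both arrays numbered 4. Among the KLF7 arrays, the order of L1cam (1, 3, 4, 2) was also the order of Klf7. Among the control arrays it was not, since control 2, with the highest Klf7, lay between control 1 and control 3 for L1cam. Dpysl2 and Map4 did not share the order of Klf7 on the KLF7 arrays, as both were highest on KLF7 4.

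Ntrk2 and Gap43 were also measured among the reported neuronal targets. Ntrk2 encodes TrkB, the receptor tyrosine kinase for brain-derived neurotrophic factor. Its 8 values ran from 4.10 (KLF7 4) to 4.31 (KLF7 2), with means of 4.22 ± 0.09 on the KLF7 and 4.18 ± 0.07 on the control arrays (SD, n = 4 each) and a difference of 0.04 (SE 0.10). The arrays of both groups were interleaved, and all lay far below the array median. Gap43 encodes a membrane-bound protein kinase C substrate of growth cones. It lay at 5.25, 4.79, 5.03 and 4.78 on the KLF7 arrays and at 4.65, 4.91, 4.78 and 4.74 on the control arrays. Only KLF7 1 and KLF7 3 stood above every control array. The difference was 0.19 (SE 0.13, 1.14-fold), and it was 0.10 without KLF7 1. Omp encodes the olfactory marker protein, a cytosolic protein of mature olfactory sensory neurons. It lay at 5.77, 5.61, 5.73 and 5.12 on the KLF7 arrays and at 5.74, 5.66, 5.49 and 5.78 on the control arrays. KLF7 4 was the lowest of all. The difference was -0.11 (SE 0.16), and 0.07 without both arrays numbered 4, so its sign rests on them.

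Dpysl2 encodes CRMP2, a cytosolic phosphoprotein that binds tubulin dimers, promotes the assembly of microtubules and relays the signal of semaphorin 3A. Its probe set, 10420988, lay at 8.81, 8.66, 8.28 and 9.004 on the arrays KLF7 1 to 4 and at 7.18, 7.19, 6.92 and 7.75 on control 1 to 4. The groups were 0.53 log2 apart at their nearest arrays, KLF7 3 and control 4. Within both groups array 4 was the highest and array 3 the lowest. The means were 8.69 ± 0.31 and 7.26 ± 0.35 (SD, n = 4 each), a difference of 1.43 (SE 0.23, 2.69-fold), which was the highest of the 9 genes. It was 1.49 without both arrays numbered 4.

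Map4 encodes the microtubule-associated protein of most cells outside the nervous system, which binds along microtubules and stabilises them. Its kept probe set, 10589438, lay at 8.75, 8.29, 8.60 and 8.83 on the arrays KLF7 1 to 4 and at 7.67, 7.48, 7.23 and 7.45 on control 1 to 4. KLF7 2, the lowest KLF7 array, was 0.62 log2 above control 1, the highest control array. The means were 8.62 ± 0.24 and 7.46 ± 0.18 (SD, n = 4 each), a difference of 1.16 (SE 0.18, 2.23-fold), and 1.09 without both arrays numbered 4. A second, dimmer probe set of Map4, 10589462, had means of 6.35 ± 0.42 and 5.96 ± 0.27 (SD, n = 4 each) and a difference of 0.39 with overlapping groups. With the mean of both probe sets the difference of Map4 was 0.78.

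Mapt, the gene of the neuronal relative of MAP4, tau, showed nothing of this kind. Its values ran from 5.25 (KLF7 4) to 5.64 (KLF7 2), and the control arrays lay between 5.39 and 5.47, inside the range of the KLF7 arrays. The means were 5.43 ± 0.17 and 5.43 ± 0.04 (SD, n = 4 each), with a difference of 0.0051 (SE 0.12).

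The stathmins work in the opposite direction from MAP4 and tau: they bind tubulin dimers and favour the shortening of microtubules. Stmn1, the form of dividing cells, lay at 9.46, 10.17, 9.50 and 10.18 on the arrays KLF7 1 to 4 and at 9.72, 8.95, 9.42 and 10.13 on control 1 to 4. High arrays (KLF7 2, KLF7 4 and control 4) and lower ones were found in both groups, and KLF7 was above control in 12 of the 16 pairs of arrays. The means were 9.83 ± 0.40 and 9.55 ± 0.49 (SD, n = 4 each), a difference of 0.27 (SE 0.28) that was smaller than the spread within a group. It was 0.07 without control 2, 0.46 without control 4 and -0.04 without KLF7 2 and control 2. A further probe set that carries the same symbol differed from the kept one by at most 0.03 log2 on any array, so the 2 may read the same or a near-identical sequence and are no independent measurements. Stmn2, the stathmin of growing axons, lay between 4.25 (KLF7 4) and 4.78 (KLF7 2), with a difference of -0.07 (SE 0.14) and control arrays between 4.58 and 4.73. Its difference was 0.02 without both arrays numbered 4.

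**Figure D2:**
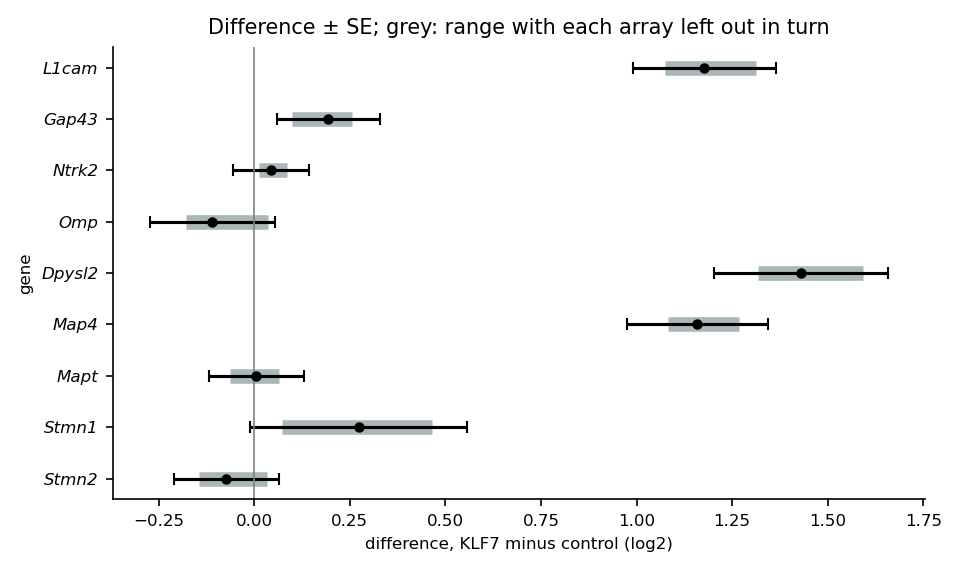
Difference of the mean log2 intensity, KLF7 minus control (horizontal axis), for each of the 9 genes (vertical axis), with points and black bars for the difference ± SE from limma and grey bars for the range of the difference when each of the 8 arrays is left out in turn. L1cam ranges from 1.07 to 1.31, Dpysl2 from 1.32 to 1.59 and Map4 from 1.08 to 1.27, while the ranges of Mapt, Stmn2 and Omp cross 0.

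The levels were then set beside Klf7 on the same arrays. KLF7 2 and control 2 had nearly the same Klf7 level, 10.19 and 10.28. On these 2 arrays L1cam lay at 6.88 and 6.17, Dpysl2 at 8.66 and 7.19 and Map4 at 8.29 and 7.48. Among the control arrays, Klf7 spanned 7.98 to 10.28, while L1cam, Dpysl2 and Map4 were no higher on control 2, where Klf7 was the highest, than on at least 1 other control array. The differences of L1cam, Dpysl2 and Map4 without KLF7 2 and control 2 were 1.33, 1.41 and 1.28. Whether L1cam, Dpysl2 and Map4 follow the level of Klf7 was not tested. The labels do not say whether the Klf7 probe set reads the viral transcript or the endogenous gene.

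**Figure D3:**
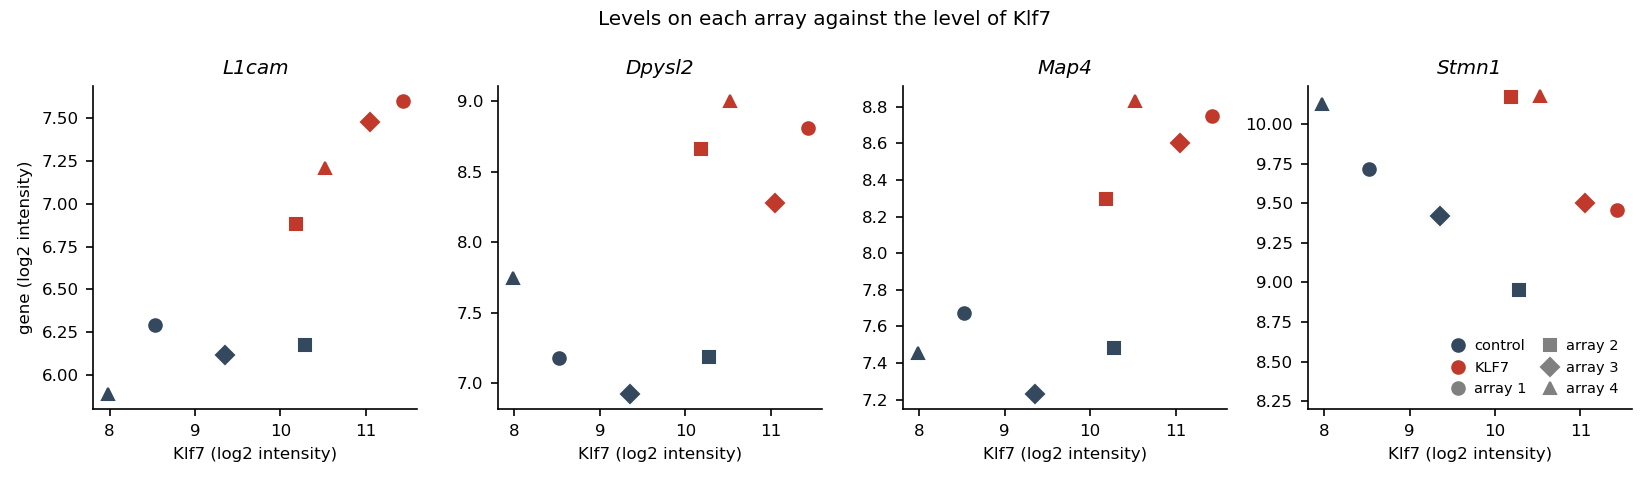
Log2 intensity of L1cam, Dpysl2, Map4 and Stmn1 (vertical axes) against the log2 intensity of Klf7 (horizontal axes), 1 point per array, with colour for the group and shape for the array number. At a Klf7 level of about 10.2, the square of KLF7 2 lies above the square of control 2 in all 4 panels. Control 2 lies within the range of the other control arrays for L1cam, Dpysl2 and Map4.

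Markers of mature myeloid cells differed in the same direction as L1cam, Dpysl2 and Map4. Their list was chosen with earlier results of these data known, so its counts are given as a description. The mean of 14 of 15 monocyte, macrophage and dendritic cell markers was higher on KLF7 than on control arrays, 10 of them with an unadjusted p under 0.05 in limma (4.65% of all genes had such a p and a higher mean) and 0 with an adjusted p under 0.05 (smallest 0.323). Their median difference was 0.86, and 14 lay above the array median. Their summed intensity was 10302.5 to 21890.1 on the KLF7 arrays and 4959.8 to 12496.6 on the control arrays, so the ranges overlapped. Ccr7, a chemokine receptor gene of mature dendritic cells, differed by 1.28 (SE 0.30) and Cd83, a surface protein gene of the same cells, by 1.22 (SE 0.31). The mean log2 intensity of the list was 9.67, 8.74, 8.51 and 8.97 on KLF7 1 to 4 and 8.39, 7.94, 7.58 and 8.66 on control 1 to 4. Control 4 lay above KLF7 3 for the list, and in every other pair of a KLF7 and a control array the KLF7 array was the higher. L1cam, Dpysl2 and Map4 were each lower on control 4 (5.89, 7.75 and 7.45) than on KLF7 3 (7.48, 8.28 and 8.60). The sort kept Lin- cells only, a gate meant to leave out mature cells that carry lineage antigens. In bulk samples such as these, more cells of a type and more RNA per cell cannot be told apart, and the part of such cells in the differences of L1cam, Dpysl2 and Map4 was not tested. Of 11 granulocyte and mast cell markers 6 had a higher mean, of 8 lymphoid markers 5 and of 6 erythroid and megakaryocyte markers 1, and none of these had an unadjusted p under 0.05. Mpo and Elane, granule enzyme genes, were at -1.11 (SE 0.75) and -1.02 (SE 0.88). The T cell receptor gene Cd3g was at 0.21 (SE 0.11) and the B cell receptor gene Cd79a at -0.28 (SE 0.15). Epor, the erythropoietin receptor gene, was at -0.26 (SE 0.14) and Gp9, a platelet glycoprotein gene, at -0.44 (SE 0.52).

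Among the 10 stem and progenitor markers, 8 had a higher mean with KLF7, with a median difference of 0.21, and 0 had an adjusted p under 0.05 in limma. Hlf and Myb, genes of transcription factors of stem and progenitor cells, were the 2 with a lower mean, and the only 2 of the list with an unadjusted p under 0.05. Hlf lay at 6.29, 7.17, 6.72 and 6.50 on KLF7 1 to 4 and at 7.53, 7.50, 7.25 and 8.03 on control 1 to 4, a difference of -0.90 (SE 0.23, adjusted p 0.327 in limma). Myb lay at 8.53, 9.26, 9.66 and 9.17 on the KLF7 arrays and at 10.08, 10.04, 10.30 and 9.82 on the control arrays, a difference of -0.91 (SE 0.24, adjusted p 0.356 in limma). For both genes all KLF7 arrays lay below all control arrays, opposite in direction to L1cam, Dpysl2 and Map4. Whether these differences are linked was not tested.

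Stmn1 was set beside 12 cycling cell markers, because the gene is known to be high in dividing cells. Of these, 2 were higher and 10 lower on average with KLF7, and the median difference was -0.20 with a smallest adjusted p of 0.520 in limma. Birc5, the gene of the mitotic protein survivin, was at 0.63 (SE 0.25, adjusted p 0.520 in limma). Cdc20, an activator of the anaphase-promoting complex, was at -0.54 (SE 0.28). The mean log2 intensity of the list was 8.37, 8.77, 8.40 and 8.87 on KLF7 1 to 4 and 8.61, 8.71, 8.89 and 8.77 on control 1 to 4. Within the KLF7 group the arrays numbered 2 and 4 were the higher ones for both Stmn1 and the list. Within the control group Stmn1 was lowest on control 2 and the list was lowest on control 1. The part of cell division in the level of Stmn1 was not tested.

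**Figure D4:**
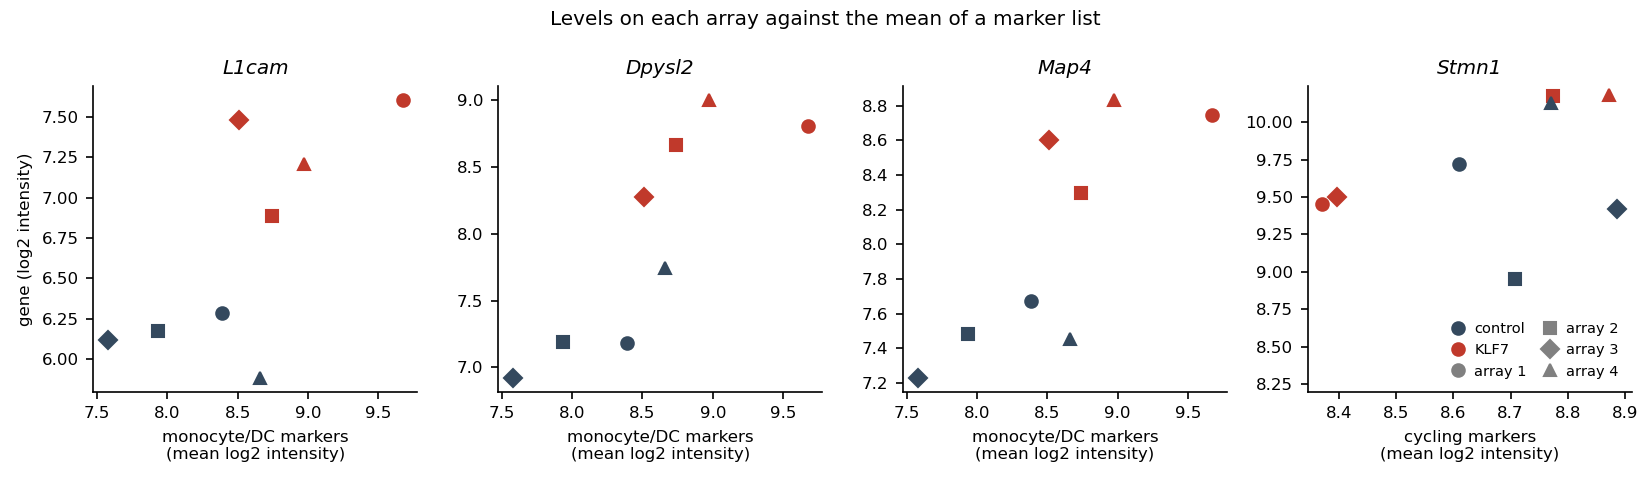
Log2 intensity of L1cam, Dpysl2 and Map4 against the mean log2 intensity of 15 monocyte, macrophage and dendritic cell (DC) markers, and of Stmn1 against that of 12 cycling cell markers, 1 point per array, with colour for the group and shape for the array number. Control 4 (dark triangle, 8.66 on the monocyte and DC axis) lies to the right of KLF7 3 (red diamond, 8.51) and below it in the first 3 panels. In every other pair of a KLF7 and a control array, the KLF7 array lies farther right in these panels.

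The other genes of these pathways were counted over 9 lists of relatives, partners and targets, of which 118 of 128 genes were measured. None passed 0.05 adjusted over all genes in limma, 9 had an unadjusted p under 0.05 with a higher mean (7.63%, against 4.65% of all genes) and 2 with a lower mean, against 3.56% of all genes. In all, 9.32% had such a p, near the 8.21% of all genes. Of the 118, 72 (61.0%) had a higher mean, against 50.4% of all genes, and the median difference was 0.06. No overlap between the groups, in either direction, was seen for 8 of the 118 (6.78%, against 5.22% of all genes). Each of the 8 had KLF7 higher, which held for 2.83% of all genes, while 2.38% of all genes had KLF7 lower. The lists were chosen with earlier results of these data known, so nothing is read from the count. The 8 genes were Marcks, Tuba1a, Tubb2a, Dst, Basp1, Map7d1, Nrcam and Dctn1, of which Dctn1 was named after its values were seen.

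Growth cone substrates related in kind to GAP43 had the highest median of the 9 lists, 0.27, with 7 of 9 genes higher. Marcks, which encodes a protein kinase C substrate that links membrane and actin, lay at 9.82, 9.26, 8.50 and 8.86 on KLF7 1 to 4 and at 8.01, 6.47, 7.20 and 7.72 on control 1 to 4. The difference was 1.76 (SE 0.36, 3.39-fold, adjusted p 0.290 in limma). All KLF7 arrays lay above all control arrays. Basp1, the gene of a membrane protein that shares many properties with GAP43, differed by 0.52 (SE 0.18, adjusted p 0.456 in limma).

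Tubulin subunits divided by gene, with 7 of 14 higher and 7 lower and a median of 0.04. Tuba1a, an alpha tubulin gene prominent in neurons, lay at 9.81, 10.49, 9.89 and 10.74 on the KLF7 arrays and at 8.91, 8.59, 8.62 and 9.72 on the control arrays; the nearest arrays were KLF7 1 and control 4. The difference was 1.28 (SE 0.30, 2.42-fold, adjusted p 0.323 in limma). With a batch term for the arrays numbered 4 it passed in limma (adjusted p 0.0431), in a fit that called 0.115% of all genes with a higher mean. Tubb2a, a beta tubulin gene, differed by 1.00 (SE 0.22, 2.01-fold, adjusted p 0.298), at 8.88 ± 0.41 against 7.88 ± 0.12 (SD, n = 4 each, limma). Tubb3, the beta tubulin used as a marker of neurons and named after its values were seen, was below the array median and at -0.02. Tubulin genes are close in sequence, and signal may be shared between their probe sets.

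Plus-end tracking proteins, which ride on growing microtubule ends, had 10 of 13 genes higher and a median of 0.18. Dst, which encodes a linker of microtubules and other filaments, lay at 5.93 ± 0.25 against 5.31 ± 0.07 (SD, n = 4 each), a difference of 0.62 (SE 0.15, adjusted p 0.323 in limma). Clip2, a microtubule linker gene, was at 0.26 (SE 0.15). Of 14 genes listed as structural microtubule-associated proteins, 9 were higher with a median of 0.06. The list was mixed, since it also held the kinase genes Mark1, Mark2, Mark3 and Mark4 (named after their values were seen). Map1lc3a, whose product is better known for autophagy, was at 0.43 (SE 0.17) and Map7d1 at 0.34 (SE 0.15). Of 17 stathmin relatives and tubulin-binding regulators, 11 were higher with a median of 0.09. Tppp3, a tubulin polymerisation gene, was at 0.53 (SE 0.28) and at 0.12 without both arrays numbered 4, and Fign, a severing enzyme gene, was at -0.19 (SE 0.12).

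The families of Dpysl2, L1cam, Ntrk2 and Omp had small differences. Of 16 genes of the CRMP family and of semaphorin signalling, 13 were higher with a median of 0.13. The paralogs of Dpysl2 (Crmp1, Dpysl3, Dpysl4 and Dpysl5, named after their values were seen) all lay below the array median, with differences of 0.02 to 0.14. Plxna3, a semaphorin receptor gene, was at -0.56 (SE 0.23), and at -0.25 without both arrays numbered 4. The kinase gene Cdk5, whose product phosphorylates CRMP2, was at 0.41 (SE 0.19). Of 12 relatives and partners of L1, 5 were higher and 1 lay above the array median, with a median difference of -0.03. Nrcam, an L1 family gene below the array median, was at 0.23 (SE 0.10), and Ncam2 at 0.33 (SE 0.18). Of 8 neurotrophin and receptor genes, 3 were higher, with a median of -0.08. Kidins220, a scaffold of neurotrophin receptors, was at 0.32 (SE 0.19) and Sort1, a sorting receptor gene, at -0.30 (SE 0.22). Of 15 olfactory neuron genes, 7 were higher with a median of -0.01. Adcy3, the adenylyl cyclase of olfactory cilia, was at -0.30 (SE 0.17) and Stoml3 at -0.16 (SE 0.13).

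**Figure D5:**
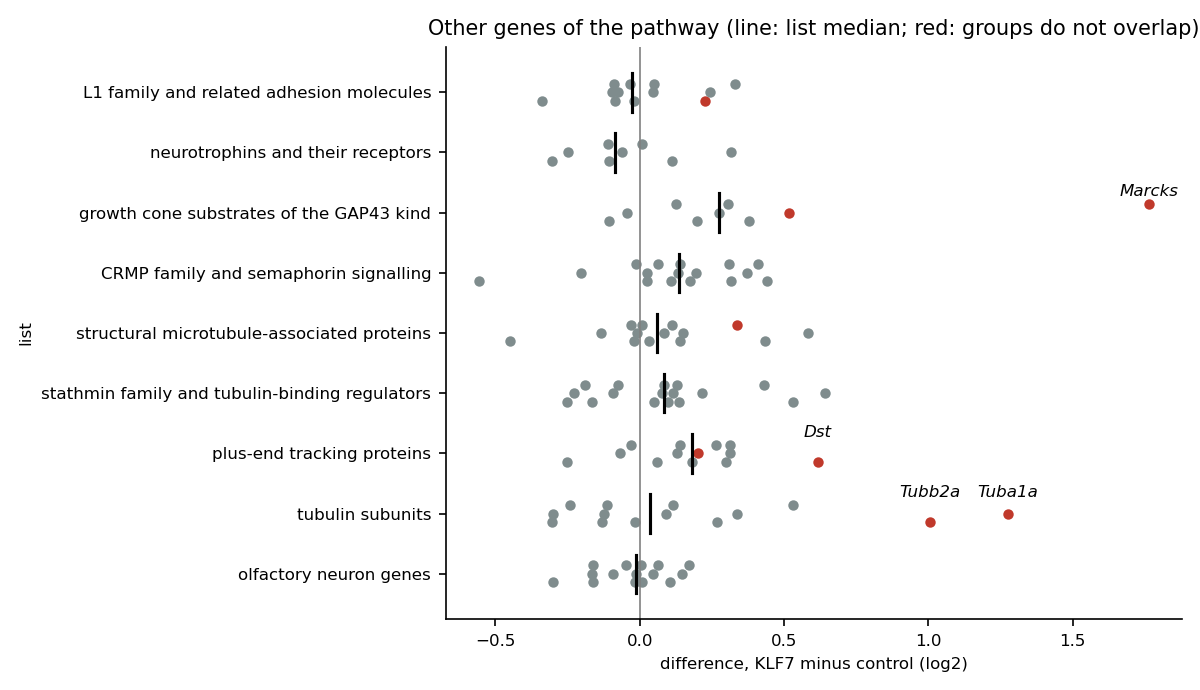
Difference of the mean log2 intensity, KLF7 minus control (horizontal axis), for the 118 other pathway genes in their 9 lists (vertical axis), with 1 point per gene, a black line at each list's median and red points where the groups do not overlap. The 8 red points all lie to the right of 0, with Marcks at 1.76, Tuba1a at 1.28 and Tubb2a at 1.00 the farthest.

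The genes with the most similar profiles were sought over all 19938 genes, by the root mean square distance between profiles of 8 arrays centred on their means. Nearest to L1cam were Bhlhe40, a transcriptional repressor gene (distance 0.15 log2, where the profile of L1cam itself has a root mean square of 0.63), Map4 (0.19) and Pacs2, a sorting protein gene (0.21). Nearest to Map4 were Ahnak, which encodes a giant scaffold protein (0.18, where Map4 itself has 0.61), L1cam (0.19) and Pacs2 (0.20). Each of L1cam and Map4 was thus the second nearest gene of the other. Nearest to Dpysl2 were Rtn4rl1, a receptor gene related to the Nogo receptor (0.195, where Dpysl2 itself has 0.77), Capn2, a calpain protease gene (0.23), and Cst3, the gene of the protease inhibitor cystatin C (0.24). Rtn4rl1 shared with Dpysl2 the high arrays numbered 4 and the low arrays numbered 3, at 7.72, 7.35, 6.74 and 7.79 on the KLF7 arrays and 6.17, 6.24, 5.53 and 6.72 on the control arrays. Map4 ranked 18th by distance to Dpysl2 and L1cam 149th. All of these distances include the difference between the groups, which the genes were chosen for.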

How the data were processed

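Total RNA of 8 sorted cell preparations was amplified and hybridised to single-colour arrays, per the labels' protocols. The deposited values are probe set intensities on a linear scale, which the authors summarised by RMA in the Expression Console of Affymetrix, as the submitters' processing notes and the labels say. No version or build is named there. RMA and amplification can compress differences of dim genes.

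Log2 was taken. Of 35554 probe sets, 21789 carried 1 gene symbol, 1621 several and 12144 none. The probe set with the highest mean was kept per gene, which left 19938 genes. The fit used limma 3.58.1 under R 4.3.3 (lmFit, then eBayes with trend) with no term beside the group, two-sided, Benjamini-Hochberg adjusted over all genes at 0.05. The number of arrays limits the precision. Same-numbered arrays of the 2 groups correlated in their deviations at 0.35, -0.13, 0.36 and 0.70, so the numbers were not taken to pair them. Alternatives left out arrays, blocked the replicate number, weighted or renormalised the arrays and changed the log offset, prior, probe set rule and filter.

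The 9 genes and all lists were chosen with earlier results of these data known. Named were the 9 genes, Klf7, Kit, the 2 genes per pathway or marker list with the smallest p, and the 3 nearest profiles of L1cam, Dpysl2 and Map4. Figures were drawn with matplotlib 3.10.9.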

Additional observations from a re-analysis of the deposited data

How the results depend on the processing

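The differences of the 9 genes were computed under 20 alternatives, and 1 of 175 values moved by more than the spread between arrays, Map4 with the mean of its probe sets (0.78). Some of the 175 values could not move. The replicate block, the batch term, the fit without trend and the filter on dim genes leave a difference as it is. The mean of probe sets can change only Map4 and Stmn1. The count of values that stayed is therefore no measure of stability by itself. L1cam stayed between 1.02 and 1.33, Dpysl2 between 1.32 and 1.59 and Map4 between 0.78 and 1.28. The sign of Stmn1 turned without KLF7 2 and control 2 (-0.04), and those of Mapt, Stmn2 and Omp turned in 4, 3 and 2 alternatives. The median of the 9 lay between 0.0732 and 0.1971 with each array left out, and was 0.0067 without KLF7 2 and control 2. With the dimmer 50% of genes left out, only 4 of the 9 remained, all 4 higher, with a median of 1.17, and the count above the median could not be formed. The number of genes called was 0 in the main fit and 0 to 1 with each array left out. It was 26 with a batch term for the arrays numbered 4, of which 1 is a pathway gene, Tuba1a, and 3 are L1cam, Dpysl2 and Map4. With the replicate number as a block it was 90, of which 2 are pathway genes, Marcks (adjusted p 0.0349) and Tuba1a (0.0385, limma), 2 are myeloid markers, H2-Aa and Itgax (named after their values were seen), and 3 are L1cam, Dpysl2 and Map4, which were chosen on this difference. KLF7 1, KLF7 3 and KLF7 4 each correlated best with the control array of the same number. KLF7 2 did not, with 0.11 for control 4 and for control 3 and -0.13 for control 2. Genes near the array median or below it are limited by signal over background.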
